A study of Homo sapiens with 9 samples.

Results

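The first hour of recovery from a mild heat stress was read from a pair of arrays of the human cell line U937. Of the 9 arrays in the series, these are the 2 labelled as heated at 42 °C with 0 h and with 1 h of recovery at 37 °C. The difference between them, 1 h minus 0 h, describes which transcripts went up or down once the cells were back at 37 °C. ASNS, ATF3, KLF2 and HMOX1 had been listed as marks of this interval. The interval and the genes were chosen with earlier results of these data known. ASNS, ATF3 and HMOX1 were higher at 1 h by more than 2-fold, while KLF2 was higher by 1.74-fold.

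U937 is a lymphoma line that grows in suspension and has monocyte-like features. The heated cultures spent 15 min at either 42 or 44 °C and were collected at once (0 h) or after 1, 3 or 6 h of recovery, and the control culture was not heated. Each of these 9 conditions has 1 array, made from total RNA. All arrays come from 1 cell line, nothing in the labels ties cultures to a day or a batch, and the control has no recovery time. The 44 °C pair at 0 and 1 h shares no array with the 42 °C pair and is therefore set beside it below.

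Heat lowers the production of many transcripts while heat shock factors drive chaperone genes. ATF4 is a transcription factor made when amino acids are short or proteins are damaged, and its targets include enzymes and transporters of amino acids. SREBP factors switch on cholesterol synthesis when membranes lack sterol. Immediate early genes such as JUN and EGR1 are transcribed within minutes of a stimulus and have short-lived transcripts. The levels of such transcripts at 0 and 1 h reflect both synthesis and decay, which arrays do not separate.

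The deposited signals are on a linear intensity scale with 1 value per probe set, a group of short probes against 1 transcript. Each array was multiplied so that its trimmed mean was 100, signals under 12.5 were raised to that floor, and differences are given as log2 units or as folds. With 1 array per condition there was no replicate, no test was run, and how precise any value is depends on these few arrays. A gene is said to have risen or fallen where the difference was 2-fold or more (1 in log2), and "at least" marks a fold in which 1 of the values was raised to the floor. Before scaling, the trimmed means were 160 at 0 h and 140 at 1 h, within a range of 101 to 211 over all arrays. After scaling, 49.4% and 51.5% of probe sets lay above the floor. The ratio of 3′ to 5′ signal, a sign of RNA integrity, was 1.19 at 0 h and 1.32 at 1 h for ACTB and 1.01 and 1.07 for GAPDH. The part of the ACTB shift in the results was not tested.

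Of 19775 genes, 413 were 2-fold or more higher at 1 h than at 0 h (2.09%) and 84 were lower (0.425%). A rise of 4-fold or more was seen for 17 genes (0.086%), and a fall of that size for 0. The median over all genes was 0.00, and over the 10906 genes above the floor on both arrays it was 0.02, with an SD between genes of 0.42. The balance between rises and falls depends on the scaling: quantile normalisation gave 265 rises and 188 falls, so that rises were 58.5% of calls in place of 83.1%. For the genes above the floor, the median in place of 0.02 was -0.15 with scaling to a common median and -0.18 with the deposited values left unscaled, so small differences are read against those medians. The rises were mostly of modest size, with a median of 1.22 and a median signal of 21.9 at 0 h and 56.1 at 1 h. Of them, 118 used the floor on 1 side. Among the 5217 genes brighter than 16 times the floor, 79 rose (1.51%) and 4 fell (0.0767%). Many genes lay close to the threshold: 155 sat between 0.9 and 1 and 105 between 1 and 1.1. In whole cultures, a change in RNA per cell and a change in which cells remain cannot be told apart.

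**Figure D1:**
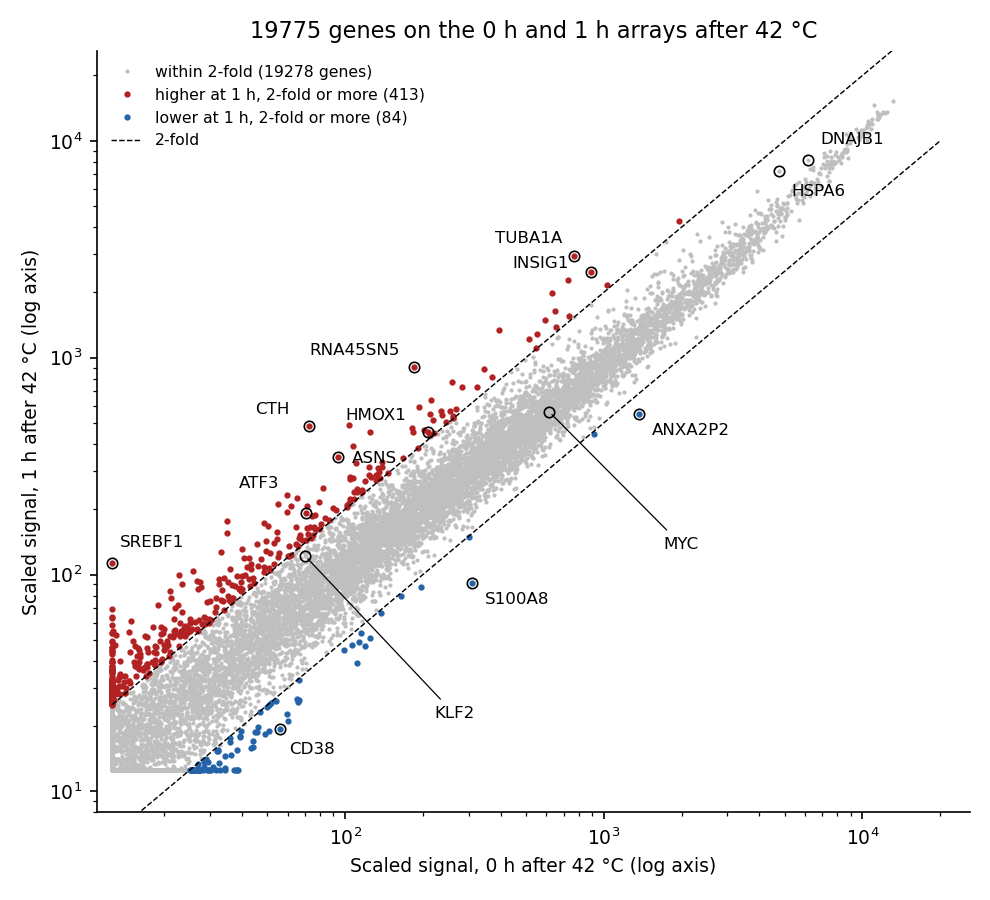
Scaled signal of 19775 genes on the 0 h array (x axis) and the 1 h array (y axis) after 42 °C, both on log axes, with signals under 12.5 raised to that floor; each point is 1 gene and the dashed lines mark 2-fold. The 413 red points above the upper line outnumber the 84 blue points below the lower line, and HSPA6 and DNAJB1 lie at the bright end between the lines.

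ASNS, the enzyme that makes asparagine and a standard target of ATF4, had signals of 309 in the control, 93.6 at 0 h, 349 at 1 h, 380 at 3 h and 371 at 6 h after 42 °C. It thus started the hour far under the control and ended it slightly above, a 3.73-fold rise (log2 1.90). After 44 °C it went from 114 to 288, so the 0 h arrays of both temperatures were the lowest of the 9. ATF3, a stress-induced repressor of the same network, had signals of 57.9 in the control, 70.4 at 0 h, 191 at 1 h, 196 at 3 h and 96.0 at 6 h. Unlike ASNS, it was near the control at 0 h and 2.72-fold higher 1 h later (log2 1.44). Both calls rest on the brightest probe set. For ATF3, 2 other probe sets above the floor gave 0.31 and 0.62, and the median over its probe sets was 0.62. ASNS had 0 other probe sets above the floor, and its median over probe sets, 0.95, takes in dim signal.

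HMOX1, the heme-degrading enzyme induced by oxidants and heat, climbed on every 42 °C array, with signals of 210, 452, 745 and 1158 at 0, 1, 3 and 6 h against 114 in the control. Its first hour was a 2.15-fold rise (log2 1.11), which came to 0.94 with scaling to a common median and 0.90 without scaling, both short of 2-fold. After 44 °C it was at 94.7 and 119 over the same hour, a log2 difference of 0.33, and reached 1449 at 6 h. KLF2, a transcription factor that restrains inflammatory genes in monocytes, had signals of 20.9 in the control, 70.0 at 0 h, 122 at 1 h, 122 at 3 h and 73.3 at 6 h. Its larger step was therefore already on the 0 h array, and the hour added 0.80 in log2. A further KLF2 probe set above the floor gave 1.28, and after 44 °C the difference was 1.55, from 17.6 to 51.5.

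**Figure D2:**
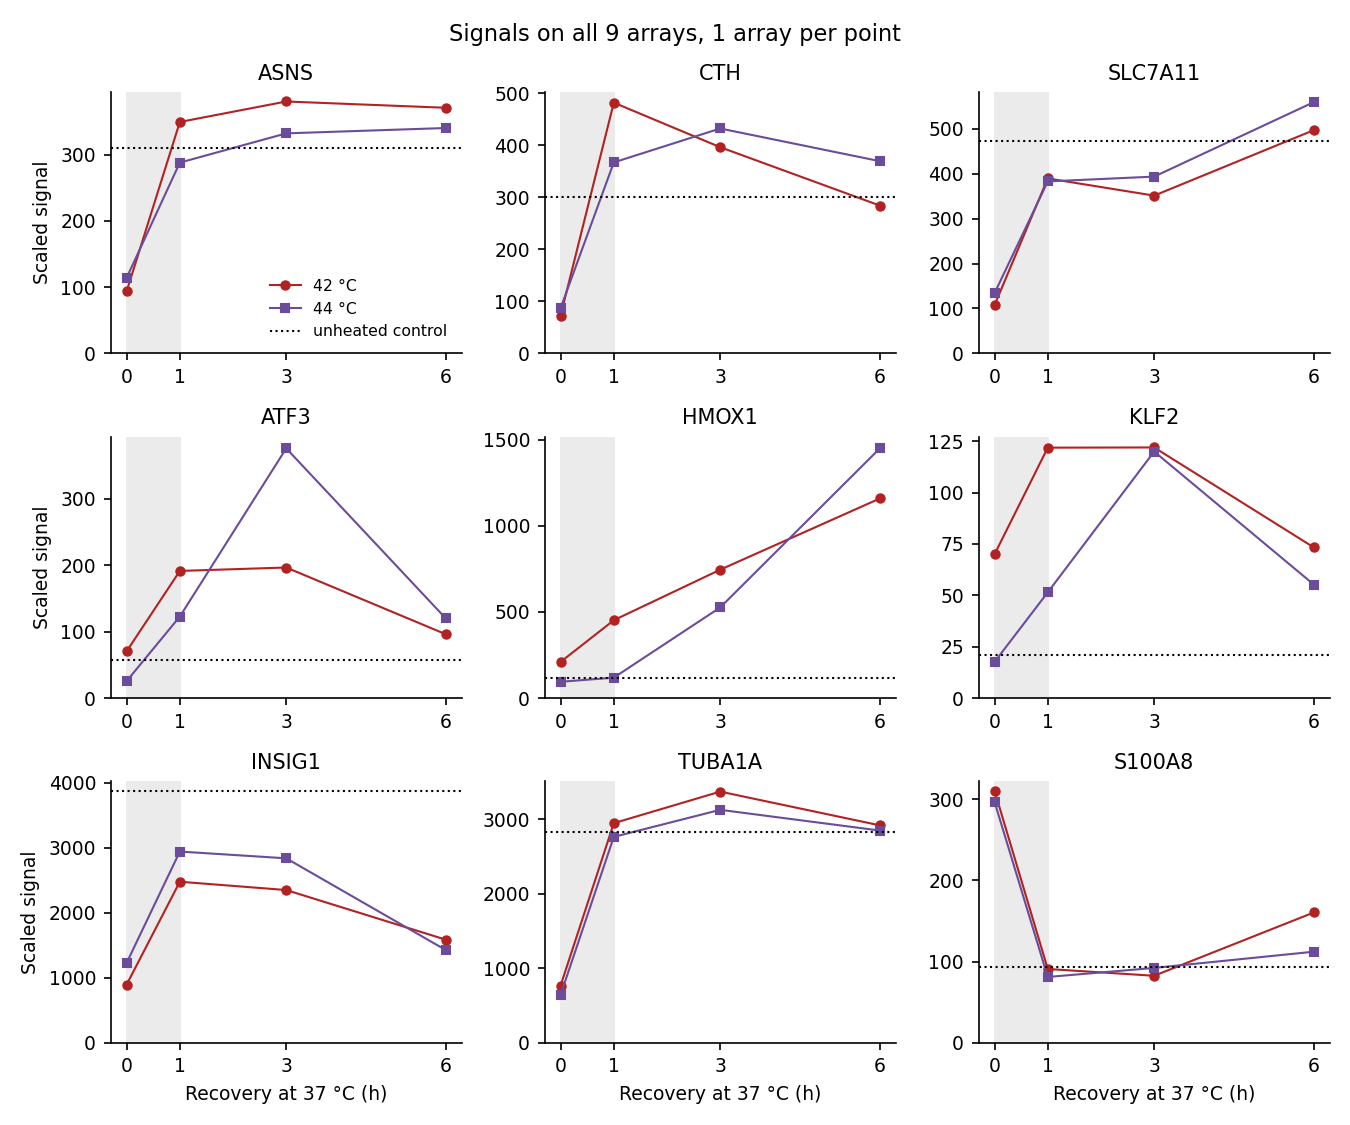
Scaled signal (y axis, linear, from 0) against hours of recovery at 37 °C (x axis) for 9 genes, 1 array per point, with circles for 42 °C, squares for 44 °C and a dotted line for the unheated control; the first hour is shaded. ASNS, CTH, SLC7A11, INSIG1 and TUBA1A start below the control line and climb within the shaded hour at both temperatures, HMOX1 keeps climbing to 6 h, and S100A8 starts above the line and drops to it.

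Enzymes and carriers of amino acids supplied some of the large rises. Of 24 measured genes of amino acid synthesis and transport, 4 rose (16.7%, beside 2.09% of all genes) and 0 fell (0.425% of all genes), with a median of 0.31. The largest of the 4 was CTH, which makes cysteine from cystathionine: its signal was 300 in the control, 72.6 at 0 h and 482 at 1 h, a 6.63-fold rise (log2 2.73), and a further probe set gave 2.40. SLC7A11, the cystine importer of the plasma membrane, went from 108 to 390 (log2 1.86) against 474 in the control. PSAT1, of serine synthesis, went from 1028 to 2168 (log2 1.08) against 1975 in the control, and was at 0.91 with scaling to a common median. These 4 genes, ASNS included, share a course in which the 0 h array lies under the control and the 1 h array near or above it. The other members did not reach 2-fold, among them the cystathionine synthase CBS at 0.94, the glutamine carrier SLC38A2 at 0.91 and PHGDH, which starts serine synthesis, at 0.73. PYCR1, of proline synthesis, was at -0.73. The 17 measured tRNA synthetases, several of which are also ATF4 targets, held 0 rises and 0 falls. At 2.09% and 0.425% of all genes, those counts are near the share over all genes. Of the synthetases, 14 lay above 0, with WARS1 at 0.77 and CARS1 at 0.74. Their median of 0.15 was -0.01 with scaling to a common median.

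Among 20 regulators linked to ATF4, 4 rose (20.0%, beside 2.09% of all genes) and 0 fell (0.425% of all genes), with a median of 0.48. DDIT4, an inhibitor of the growth kinase mTORC1, had signals of 307 in the control, 193 at 0 h and 591 at 1 h, a 3.06-fold rise. SESN2, which also restrains mTORC1 when leucine is short, went from 105 to 276, against 101 in the control. CHAC1, an enzyme that degrades glutathione, went from 29.2 to 74.8, against 15.98 in the control; that rise was lost with a floor at the 75th percentile, where both values lie under the floor. ATF3 is the remaining 1 of the 4. TRIB3, a pseudokinase that feeds back on ATF4, stopped just short of the threshold, with 770 at 0 h and 1540 at 1 h (log2 0.9997) against 1624 in the control. ATF4 itself was at 0.27, and DDIT3, the apoptosis-linked factor CHOP, at -0.05, with signals of 105 and 102. PPP1R15A, which lets translation restart, was at 0.42, with 618 at 0 h already above 221 in the control.

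Promoter sequence is shown for 3 of these genes because amino acid response elements, the composite sites bound by ATF4 and its partners, are read as TGATGNAA (N is any base), and these windows contain those letters. The sequences are RefSeq's on GRCh38.p14, from windows of 250 bases before to 50 after each annotated start, written along the gene's strand with the match in capitals. ASNS is on the minus strand of chr7:97872439-97872506, with the match starting 68 bases before the start site. ATF3 is on the plus strand of chr1:212565186-212565253, with the match 191 bases before it. CHAC1 is on the plus strand of chr15:40953232-40953299, where the letters match on the opposite strand, 209 bases before the start.
ASNS: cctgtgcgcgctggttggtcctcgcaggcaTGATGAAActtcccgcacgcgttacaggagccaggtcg
ATF3: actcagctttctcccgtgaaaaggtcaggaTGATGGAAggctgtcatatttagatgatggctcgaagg
CHAC1: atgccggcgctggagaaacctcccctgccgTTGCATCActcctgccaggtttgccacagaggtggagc
ASNS and ATF3 each have 2 windows in the table, and the second window of each holds no match. No window of CTH, PSAT1, SESN2, DDIT4, TRIB3, PPP1R15A or DDIT3 holds these letters. Searched on both strands, they occur in 16 of 306 risen genes with a window (5.23%), in 1 of 61 fallen genes (1.64%), in 3.61% of 15384 measured genes with a window and in 3.62% of all 35116 windows. A match is a description of letters and not a mapped site.

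Of 23 measured genes of cholesterol synthesis and SREBP control, 8 rose (34.8%) and 0 fell, and 21 lay above 0, with a median of 0.70. Over all genes, 2.09% rose and the median was 0.00. Among the 21 members above the floor on both arrays, 6 rose and the median was 0.63. Of all 10906 genes above the floor on both arrays, 295 rose and the median was 0.02. The median of the whole list was 0.69 with quantile normalisation, 0.53 with scaling to a common median and 0.50 without scaling. INSIG1, which holds SREBP in the endoplasmic reticulum when sterols are plentiful and is itself an SREBP target, had signals of 3868 in the control, 895 at 0 h, 2476 at 1 h, 2348 at 3 h and 1585 at 6 h. It rose 2.77-fold within the hour without reaching the control, and its other probe sets gave 1.19 to 1.54. HMGCS1, which makes the precursor of mevalonate, went from 110 to 325, against 378 in the control. STARD4, a sterol carrier, went from 107 to 280, against 322 in the control.

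SREBF1, which encodes an SREBP factor that favours fatty acid synthesis, had the largest difference of all genes. Its signal was 191 in the control, 4.68 at 0 h, which is under the floor, and 113 at 1 h, a rise of at least 8.99-fold (log2 3.17). The 44 °C pair also rose, from 63.2 to 170. With a floor at the 75th percentile the SREBF1 difference was 0.51, since its 0 h value is then raised further. HSD17B7, of the late cholesterol pathway, went from 12.2, under the floor, to 53.9, and is dim on all 9 arrays. Its 44 °C difference was -0.73. The remaining 3 of the 8 were MVD at 1.25, MSMO1 at 1.23 and the fatty acid desaturase SCD at 1.13. SREBF2, the main SREBP of cholesterol synthesis, was at 0.93, and SCAP, the escort protein of SREBP, at -0.21. The classic sterol response element was searched by its letters on both strands and was not found in the windows of INSIG1, HMGCS1, STARD4, MVD, MSMO1, SCD, SREBF1 or HSD17B7. It occurs in 1 of 306 risen genes (0.327%) and in 0.0585% of measured genes with a window.

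Immediate early genes behaved unevenly. Of 29 measured genes of a list of AP-1, EGR, NR4A and IER members with other rapidly induced genes such as BTG1 and SGK1, 8 rose (27.6%, beside 2.09% of all genes) and 0 fell, with a median of 0.48; 7 rose with quantile normalisation, and 4 with scaling to a common median or without scaling. NR4A1, an orphan nuclear receptor, had signals of 6.73 in the control, 33.2 at 0 h and 127 at 1 h, a 3.82-fold rise. Its other probe set above the floor gave 0.89, and with a floor at the 75th percentile NR4A1 was at 0.68. JUN, a subunit of AP-1, went the other way before the hour, with 503 in the control, 214 at 0 h and 640 at 1 h (2.98-fold). Its 3 other probe sets above the floor gave 1.17 to 1.74. IER3, which protects cells from death signals, went from 181 to 472, and EGR1, a zinc finger factor, from 134 to 311. BTG1, an antiproliferative gene, went from 369 to 814, and was at 0.98 with scaling to a common median. The others of the 8 were MAFF, SGK1 and JUND, each close to the threshold at 1.02, 1.01 and 1.01. FOS was at 0.54, JUNB at -0.10 and MYC, the growth factor-responsive factor whose signal had gone from 3123 in the control to 614 at 0 h, at -0.12 with 564 at 1 h. IER5, a regulator of heat shock factor, had 524 in the control, 3830 at 0 h and 4810 at 1 h, so its hour was 0.33.

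Of 11 MAP kinase phosphatases, which switch off stress kinases, 2 rose (18.2%, beside 2.09% of all genes) and 0 fell. DUSP1 had signals of 59.7 in the control, 283 at 0 h and 730 at 1 h (log2 1.37), but its other probe sets ran from -0.97 to 0.84, and the median over probe sets was 0.84. DUSP10 went from 43.2 to 112. Of 17 KLF factors, 1 rose (5.88%, beside 2.09% of all genes) and 0 fell. It was KLF9, a glucocorticoid-responsive factor, which went from 39.1 to 86.3 (log2 1.14). That call was lost under quantile normalisation (0.95), scaling to a common median (0.98) and no scaling (0.94). The 2 other KLF9 probe sets above the floor gave -0.38 and 0.35, and the median over its probe sets was 0. With a floor at the 75th percentile KLF9 was at 0.13. KLF6 was at 0.82, KLF10 at 0.78 and KLF5 at 0.77.

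Of 30 measured heat shock chaperones, 2 rose (6.67%, beside 2.09% of all genes) and 0 fell. Their median of 0.17 came to -0.03 without scaling, so no direction is read for the group. HSPA6, the strictly inducible HSP70, had signals of 138 in the control, 4751 at 0 h, 7245 at 1 h, 10652 at 3 h and 4525 at 6 h. The hour added 1.52-fold (log2 0.61) to a gene already high. DNAJB1, an HSP40 partner of HSP70, went from 6140 to 8130 (0.41), BAG3, which links HSP70 to autophagy, from 1591 to 2999 (0.91), and HSPH1, an HSP110 exchange factor, from 3904 to 5857 (0.59). None of these 4 reached 2-fold, and all were further up at 3 h.

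The 2 chaperone genes that rose were DNAJA4 and CRYAB. DNAJA4, another HSP40, had signals of 20.5 in the control, 259 at 0 h and 769 at 1 h (log2 1.57), with other probe sets from -0.10 to 1.02 and 0.66 as the median over probe sets. CRYAB, the small heat shock protein alpha-B crystallin, had 3.58 in the control, 22.5 at 0 h, 72.4 at 1 h, 110 at 3 h and 115 at 6 h (log2 1.69). With a floor at the 75th percentile CRYAB was at 0. The signals of both genes kept climbing to 3 h. The HSPA6 promoter, shown as the example of a chaperone gene, holds the letters of a heat shock element, 74 bases before the start on the plus strand of chr1:161524436-161524508. The element was searched on both strands as 3 alternating GAA and TTC triplets with any 2 bases between neighbours.
HSPA6: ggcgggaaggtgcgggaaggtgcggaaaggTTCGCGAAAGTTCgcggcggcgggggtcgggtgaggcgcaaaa
Those letters occur in 2 of 306 risen genes (0.654%), in 0 of 61 fallen genes and in 0.579% of measured genes with a window. They were not found in the windows of DNAJB1, BAG3 or DNAJA4. Of the 3 windows of DNAJA4, 1 holds the letters TGATGNAA, 248 bases before the start.

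Of 24 p53 targets and growth arrest genes, 5 rose (20.8%, beside 2.09% of all genes) and 0 fell, with a median of 0.25; 3 rose under each of the 3 other scalings. CDKN1A, the p21 inhibitor of cyclin-dependent kinases, had signals of 105 in the control, 79.5 at 0 h, 217 at 1 h, 319 at 3 h and 160 at 6 h, a 2.73-fold rise. CCNG2, an atypical cyclin of resting cells, went from 71.2 to 208 (2.92-fold), and its other probe sets gave 0.37 to 0.90. SESN2, described above, is also in this list. PLK3, a stress-responsive polo kinase, went from 15.6 to 34.0 and CDKN1C, the p57 inhibitor, from 17.0 to 34.1, both dim and both short of 2-fold under quantile normalisation (0.92 and 0.78). Among S phase genes, 0 of 33 rose or fell, 28 lay below 0 and the median was -0.23. E2F1, which drives entry into S phase, was at -0.78 and CCNE1, its cyclin target, at -0.70. Of 34 mitosis genes, 0 rose or fell, and their median was -0.02. With 2.09% of all genes higher and 0.425% lower, counts of 0 in lists of this size are near the share over all genes.

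Of 26 proapoptotic genes, 2 rose (7.69%, beside 2.09% of all genes) and 0 fell, with a median of -0.03. With quantile normalisation 1 rose, and with scaling to a common median or without scaling 0 rose. PMAIP1, the BH3-only protein NOXA, had signals of 496 in the control, 731 at 0 h, 1552 at 1 h and 1715 at 3 h after 42 °C, a 2.12-fold rise that another probe set gave as 1.11 in log2. It came to 0.92 with scaling to a common median. BMF, another BH3-only protein, went from 24.0 to 52.0, and was at 0.91 under quantile normalisation. BCL2L11, which encodes BIM, was at 0.58 and the TRAIL receptor TNFRSF10A at 0.76. Of 16 survival genes, 0 rose or fell, near the share over all genes (2.09% and 0.425%), with a median of 0.36. The short-lived survival protein gene MCL1 was at 0.49.

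Inflammatory targets of NF-kB rose in 3 of 27 cases (11.1%, beside 2.09% of all genes) and fell in 0, with a median of 0.32. They rose in 2 cases with quantile normalisation or scaling to a common median, and in 1 without scaling. IL1B, the fever cytokine, had signals of 106 in the control, 59.8 at 0 h, 195 at 1 h and 281 at 3 h, a 3.26-fold rise. NFKBIZ, a nuclear cofactor of NF-kB, went from 119 to 271 (2.27-fold), and its other probe set gave 1.31. CXCL8, which draws neutrophils, went from 136 to 280 against 375 in the control, its other probe set above the floor gave 0.08, and it was short of 2-fold under all 3 other scalings (0.83 to 0.96). Of 21 receptor and RGS genes, 1 rose (4.76%, beside 2.09% of all genes) and 0 fell. It was the chemokine receptor CCR1, which went from 33.2 to 76.5 against 115 in the control. TNF was at 0.86 and NFKBIA, the inhibitor that NF-kB induces against itself, at 0.70. In the interferon list 0 of 25 rose or fell, which is near the share over all genes (2.09% and 0.425%). Its median was 0.27, and 0.07 without scaling.

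Of 25 NRF2 targets, 2 rose (8%, beside 2.09% of all genes) and 0 fell. The 2 were HMOX1 and SLC7A11, both of which also answer to other factors. NQO1, GCLC and TXNRD1, standard readouts of NRF2, were at 0.20, 0.10 and -0.01, and GCLM at -0.46. Of 27 hypoxia and glycolysis genes, 3 rose (11.1%, beside 2.09% of all genes) and 0 fell. ANKRD37 went from 22.0 to 70.1, PFKFB4 from 52.9 to 140, and VEGFA, the angiogenic factor, from 651 to 1383. VEGFA had been at 1066 in the control, its other probe sets gave 0.70 to 1.35, and it was at 0.92 with scaling to a common median. The glycolytic enzymes GAPDH at 0.15, PGK1 at 0.01 and LDHA at -0.07 stayed near 0. The medians of both lists turned negative with scaling to a common median, so no direction is read for either.

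**Figure D3:**
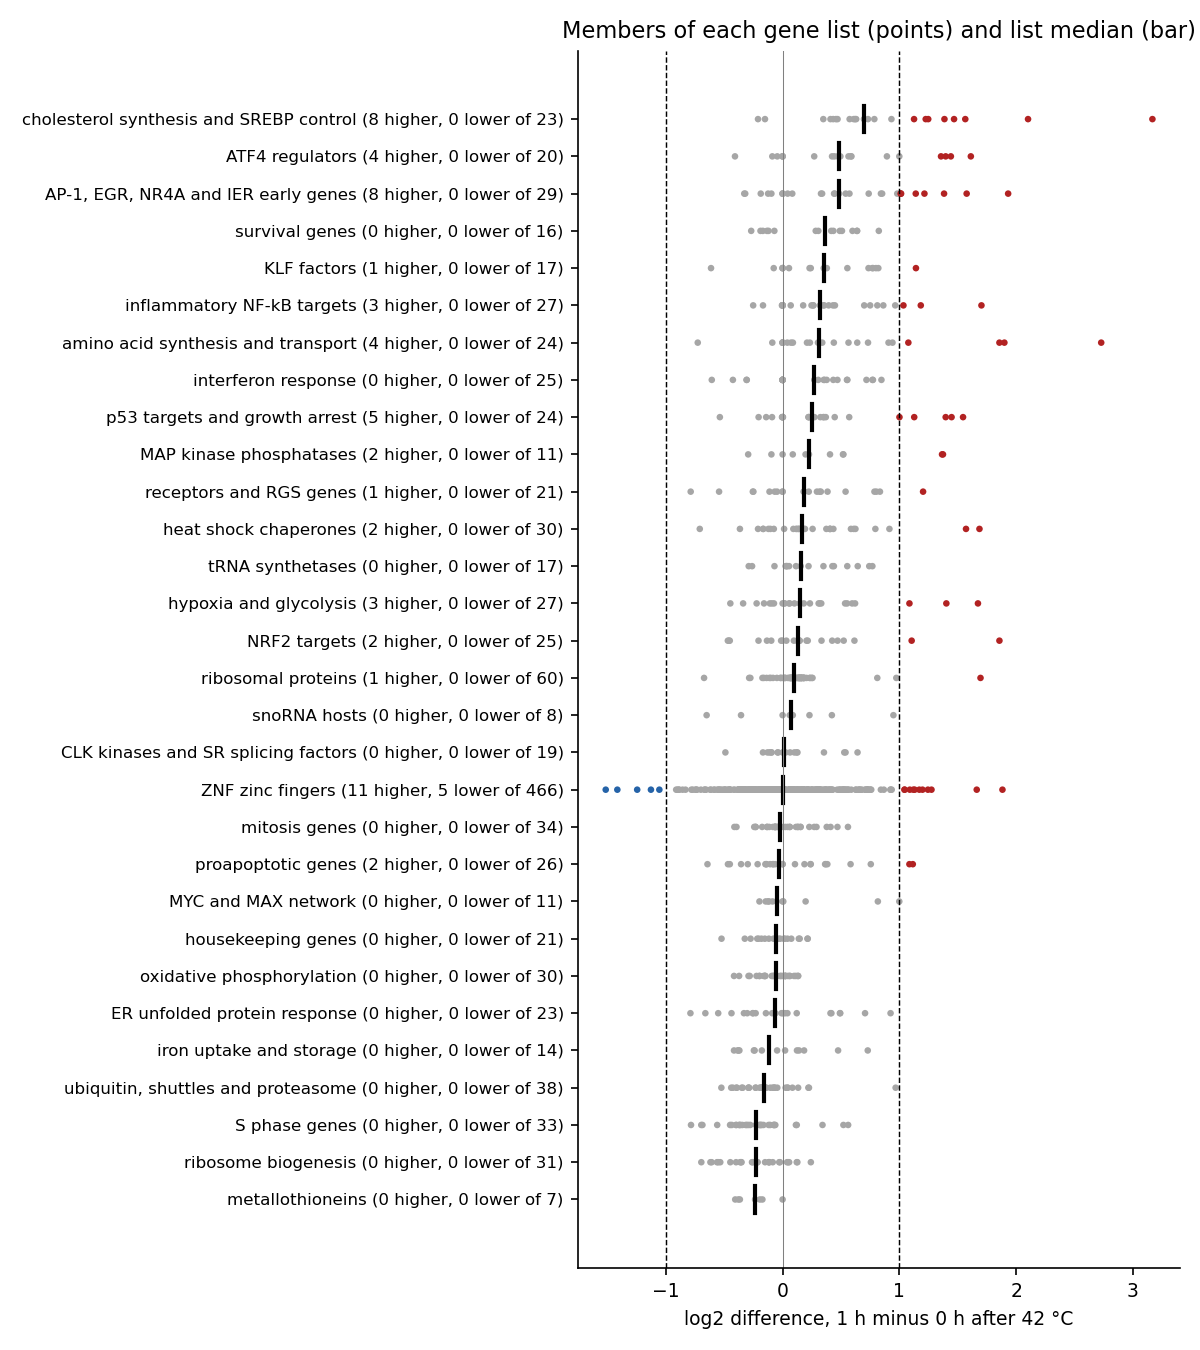
Log2 difference, 1 h minus 0 h after 42 °C (x axis), for every measured member of 30 gene lists (points, 1 per gene; red at 2-fold or more higher, blue at 2-fold or more lower), with a black bar at each list's median and dashed lines at 2-fold. Cholesterol genes have the highest median at 0.70, and the lists of ribosome biogenesis and S phase genes lie mostly left of 0 with no member past 2-fold.

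Many lists held no call in either direction, which at 2.09% and 0.425% of all genes is near the share over all genes. Among them were ribosome biogenesis (31 genes, median -0.23, 25 below 0), ubiquitin with the proteasome (38 genes, median -0.16, 30 below 0), the unfolded protein response of the endoplasmic reticulum (23 genes, median -0.06), and metallothioneins (7 genes, median -0.24). Iron genes (14), the MYC and MAX network (11), CLK kinases with SR splicing factors (19) and snoRNA hosts (8) also held none. HSPA5 and HSP90B1, the main chaperones of the endoplasmic reticulum, were at -0.44 and -0.79, while DNAJB9 was at 0.92. NOP2, of ribosome assembly, was at -0.70 and BYSL at -0.62. Housekeeping genes (21 genes) had a median of -0.06 and oxidative phosphorylation genes (30) the same. Of 60 ribosomal protein genes, 1 rose (1.67%), RPL36A, dim at 15.2 and 49.1, and their median of 0.10 was -0.01 with quantile normalisation. Over 31 lists with a median other than 0, 9 changed sign under at least 1 of 3 other scalings. Zinc finger genes, most of which are dim, held 11 rises and 5 falls in 466 (2.36% and 1.07%, beside 2.09% and 0.425% of all genes). ZNF333, ZNF335 and ZNF160 led the rises, at 1.88, 1.66 and 1.28 (0.30, 0.49 and 0 as the median over probe sets), and ZNF480 and ZNF552 the falls, at -1.52 and -1.42 (-1.52 and -0.71).

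Outside the lists, the 45S precursor of ribosomal RNA, RNA45SN5, had signals of 85.3 in the control, 184 at 0 h, 905 at 1 h, 777 at 3 h and 510 at 6 h. This signal rose 4.92-fold (log2 2.30), a further probe set gave 2.00, and after 44 °C it went from 41.8 to 297. The RNA was amplified from its 3′ end, and how far the signal measures the amount of precursor was not tested. This gene is 1 of many near-identical copies, so the signal belongs to the repeat and not to a single locus. Several of the largest rises were long noncoding RNAs. RUSC1-AS1 went from 104 to 489, STX17-DT from 34.9 to 177, RUNX1-IT1 from 22.7 to 100, and LINC02806 from under the floor to 69.6. With a floor at the 75th percentile RUNX1-IT1 was at 0.34 and LINC02806 at 0. MIAT rose at least 5.06-fold, to 63.4, but its other probe sets gave 0.05 and 0.12.

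Among the remaining large rises, protein-coding genes were mostly dim. CACNA1G, a calcium channel subunit, rose at least 5.04-fold, to 63.2, with other probe sets at 0.55 and 0.59. SH3PXD2B, an adaptor of invadopodia, rose at least 4.29-fold, and the calcium-binding gene NECAB2 at least 3.95-fold. PNMA8A went from 12.7 to 54.7, CHRNB2, a nicotinic receptor subunit, from 14.8 to 61.1, and ADCY4, an adenylyl cyclase, from 21.1 to 83.9. Their signals at 1 h lay between 49.5 and 83.9, and none of these 6 stayed past 2-fold with a floor at the 75th percentile.

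Further genes outside the rule for naming were picked after their values were seen. TUBA1A, an alpha-tubulin, had signals of 2833 in the control, 768 at 0 h, 2950 at 1 h, 3374 at 3 h and 2921 at 6 h, a 3.84-fold return to the control level. The sister tubulins TUBA1B at 0.23, TUBA1C at 0.18 and TUBB at -0.03 did not share that course. TRIB1, a pseudokinase relative of TRIB3, went from 125 to 455, with no other probe set above the floor; KDM7A, a histone demethylase, from 48.5 to 173; and CPEB4, a regulator of poly(A) tails, from 65.2 to 226. SLC5A3, the inositol carrier, went from 725 to 2272. Its 3 other probe sets above the floor gave -0.04 to 1.43, and the median over probe sets was 0.95. MALAT1, a nuclear noncoding RNA, went from 392 to 1345 with all 11 other probe sets above 0, from 0.24 to 2.76, while after 44 °C it went from 821 to 618. P2RX7, an ATP-gated channel of monocytes, went from 27.4 to 92.8, C5AR1, the receptor for complement C5a, from 12.9 to 47.1, and LY96, the partner of TLR4, from 26.8 to 93.8. Those last 3 lay under the control at 0 h and near it at 1 h, and with a floor at the 75th percentile they were at 0.23, 0 and 0.25. IL2RB, KLHL25 and CRTAM were instead above the control by 1 h, at 167, 206 and 72.6 against 41.2, 27.3 and 13.1, and CRTAM was at 0 with that higher floor.

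The falls were fewer and dimmer, with a median signal of 36.7 at 0 h and 15.4 at 1 h, and 59 of 84 were under 4 times the floor on the brighter array. S100A8, a calcium-binding alarmin of myeloid cells, had signals of 92.9 in the control, 310 at 0 h, 91.0 at 1 h, 82.6 at 3 h and 161 at 6 h. It fell 3.41-fold (log2 -1.77), the largest fall of all genes, and after 44 °C it went from 297 to 81.1. With the median over its probe sets, which include dim ones, it was at -0.89. Its partner S100A9 was at -0.24, with 226 and 191. CD38, an ectoenzyme of activated leukocytes, showed the same course, with 22.9 in the control, 56.2 at 0 h and 19.3 at 1 h, and 75.9 and 21.2 after 44 °C. Thus both were high on the 0 h arrays of both temperatures and back at the control level 1 h later. ANXA2P2, a processed copy of the annexin gene ANXA2 picked after its value was seen, went from 1369 to 549 against 565 in the control, while ANXA2 itself was at 0.16 with 3644 and 4058.

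The other named falls were small in signal. TUBA4B, PPP1R13L and GSTM3 fell at least 3.07-, 3.05- and 2.95-fold to values under the floor, from 38.5, 38.3 and 37.0. ZNF480 went from 111 to 38.9, UBALD1 from 59.9 to 21.1, STAC3 from 59.8 to 22.7, and INHBB, an activin subunit, from 44.1 to 17.0. NRG4 went from 44.0 to 15.96 and LINC02352 from 49.1 to 18.4. TTC38 and SCAT1 fell at least 2.74- and 2.61-fold, and APCDD1L-DT went from 34.4 to 12.8. Among the 15 largest falls, S100A8 was the 1 that stayed past 2-fold with a floor at the 75th percentile.

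Few markers of cell identity passed 2-fold, though in these short lists 1 gene already gives a share above that over all genes. Of 22 measured myeloid markers, 0 rose and 1 fell, S100A8 (4.55%, beside 0.425% of all genes). Their summed signal was 12271 in the control, 13442 at 0 h and 12521 at 1 h. LYZ, ELANE, AZU1, FCER1G and CEBPA were among the bright members, while CD14, MPO and FCGR1A were at the floor on all 9 arrays. Of 14 T and NK cell markers, 1 rose (7.14%, beside 2.09% of all genes), the cytokine receptor IL7R (17.2 to 51.3). CD3E, CD3G, CD8A and CD8B were at the floor on all 9 arrays, while NKG7 (1394 and 1455) and CD4 (234 and 303) were bright. The list's sum was 1726 at 0 h and 1860 at 1 h, most of it from NKG7. Of 9 B cell markers, 1 rose (11.1%), CD79A (21.9 to 55.4), with sums of 162 and 220. MS4A1 was at the floor at 0 h and 1 h, while PAX5 was at 57.5 and 63.6 and BLNK at 41.3 and 46.9. Of 14 epithelial and fibroblast markers, 1 rose (7.14%), the collagen gene COL1A1 (34.8 to 155), while EPCAM, COL1A2 and LUM were at the floor on all 9 arrays. The list's sums were 1735 and 1748, mostly from VIM (1604 and 1539). The COL1A1 probe sets disagreed, from -0.84 to 1.37. Of 4 erythroid markers, 0 rose or fell, near the share over all genes, with sums of 129 and 128.

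The same hour after 44 °C was measured on other arrays, on which the ACTB ratio of 3′ to 5′ signal also went up, from 1.19 to 1.33, while that of GAPDH went from 1.03 to 0.985; their part in the values below was not tested. Over all genes, 291 were 2-fold or more higher at 1 h than at 0 h after 44 °C (1.47%) and 161 lower (0.814%). Of the 413 genes that rose after 42 °C, 94 also rose after 44 °C (22.8%) and 10 fell (2.42%), with a median of 0.38. Of the 84 that fell, 7 fell (8.33%) and 1 rose (1.19%), with a median of -0.26. Among the 295 rises above the floor on both 42 °C arrays, 229 lay above 0 after 44 °C (77.6%, beside 47.9% of all such genes). Of 53 such falls, 39 lay below 0 (73.6%, beside 50.8%). The rises shared by both temperatures included CTH, TUBA1A, RNA45SN5, SLC7A11, DDIT4, JUN, CDKN1A and ATF3.

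**Figure D4:**
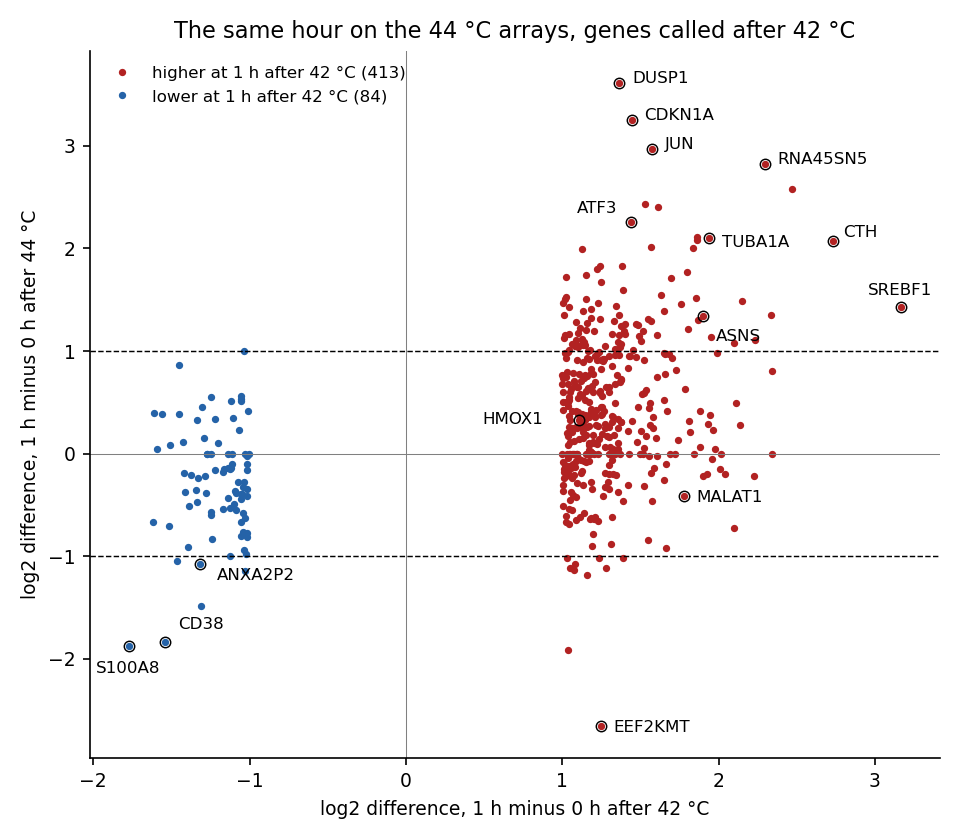
Log2 difference, 1 h minus 0 h, after 42 °C (x axis) and after 44 °C (y axis) for the 413 genes that rose (red) and the 84 that fell (blue) after 42 °C, 1 point per gene; dashed lines mark 2-fold after 44 °C. The gap on the x axis comes from the selection at 2-fold, and 94 red points lie on or above the upper dashed line while EEF2KMT lies far below the lower.

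The sizes differed between temperatures for many genes, and those differences were not tested. HSPA6 was at 0.61 after 42 °C and 4.93 after 44 °C, where it went from 131, near its control signal, to 3988. DNAJB1 was at 0.41 and 2.05, BAG3 at 0.91 and 2.48, IER5 at 0.33 and 2.53, and DUSP1 at 1.37 and 3.61. ASNS was at 1.90 and 1.34, SLC7A11 at 1.86 and 1.51, INSIG1 at 1.47 and 1.26, and HMGCS1 at 1.56 and 1.29, while SREBF1 was at 3.17 and 1.42 and HSD17B7 at 2.10 and -0.73. NR4A1, EGR1 and CHAC1 rose after 42 °C and were at 0.29, 0.28 and 0.33 after 44 °C. By list, cholesterol genes held 7 rises after 44 °C beside 8 after 42 °C, early genes 8 beside 8, amino acid genes 4 beside 4, chaperones 5 beside 2, and inflammatory genes 0 beside 3.

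Many of the risen genes were low on another array taken right after heating. On the 44 °C array at 0 h, 68 of the 413 were 2-fold or more below the control (16.5%, beside 1.03% of all genes). On the 42 °C array at 3 h, 81 were 2-fold or more above the control (19.6%, beside 1.98%). Of the 84 fallen genes, 11 were 2-fold or more above the control on the 44 °C array at 0 h (13.1%, beside 0.855%). Among the 295 rises above the floor on both arrays, the median difference from the control was -0.37 at 44 °C 0 h, 0.23 at 42 °C 3 h and 0.34 at 42 °C 6 h. Over all genes above the floor on both, those medians were 0.02, -0.02 and -0.03. Time in culture cannot be told apart from recovery in these comparisons with 1 control array.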

How the data were processed

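Total RNA of 9 U937 samples was read on Affymetrix arrays. Per the labels' protocols, the RNA was amplified from its 3′ end in 1 cycle and labelled with biotin. The deposited values are linear intensity signals per probe set, MAS5 signals per the submitters' processing notes, and the authors' scaling target is not given in the sources used here. Samples were grouped by the treatment label, 1 per group.

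Each array was scaled to a mean of 100 over 54613 non-control probe sets, with 2% trimmed at each end. Signals below 12.5, the median over all arrays, were set to 12.5 before log2 was taken. Of 54675 probe sets, 41097 had 1 symbol in the platform annotation, 1801 several and 11777 were not listed. Of those with 1 symbol, 41043 matched the RefSeq gene table and 0 changed. Where a gene had several probe sets, the brightest on average was used. Python 3.11.15, numpy 2.4.6 and pandas 2.3.3 were used. The size rule was tried on simulated data with changes in bright genes only and equal relative noise for all probe sets. That trial does not cover calls of dim genes. MAS5 subtracts mismatch signals, which makes dim values noisy.

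Named genes were 24 fixed genes, the 15 largest rises and 15 largest falls past 2-fold without another probe set of opposite sign by 0.5 or more, and up to 5 members of each list past 2-fold, 81 in all. Histone, immunoglobulin, clone and open reading frame names were left out of the largest changes. A further 20 genes, and list members given with smaller differences, were chosen after their values were seen. The interval, the genes and the lists were chosen with earlier results of these data known. Alternatives to the scaling, to the floor, to the choice of probe set and to the absence of a filter on dim genes were computed.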

Additional observations from a re-analysis of the deposited data

Results flagged for a closer look

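At 42 and 44 °C, 11 genes passed 2-fold in opposite directions over the first hour. The difference between temperatures was not tested, each value rests on 1 array a side, and most of these genes are dim. The brightest of them, EEF2KMT, a methyltransferase of elongation factor 2, went from 45.9 to 109 after 42 °C, a log2 difference of 1.25, and from 110 to 17.6 after 44 °C, a difference of -2.65. Its control signal was 85.6.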

How the results depend on the processing

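No paired analysis was possible because each condition has 1 array. After 42 °C, 413 genes rose and 84 fell. With quantile normalisation 265 rose and 188 fell, with scaling to a common median 258 and 156, and without scaling 226 and 180. A floor at the 25th percentile gave 1786 rises and 1442 falls, and at the 75th percentile 94 and 6. The median over probe sets gave 223 and 43. With genes above the floor on both arrays 53 fell, and 295 rose. A pseudocount in place of the floor gave 301 and 92. After 44 °C, 291 rose and 161 fell; without scaling 849 and 87, under the lower floor 1469 and 1467, under the higher floor 87 and 25, with the median over probe sets 152 and 101, and with the pseudocount 222 and 107. The higher and lower floors and the filter change which dim genes can pass by construction; the cause of the other shifts was not tested. Of 71 named genes past 2-fold, 66 kept the call with quantile normalisation, 61 with scaling to a common median, 60 without scaling, 71 and 29 with the lower and higher floor, 59 with the pseudocount, 44 with the median over probe sets and 59 of 59 above the floor on both arrays. None of the 71 reversed under these 8 alternatives. The filter leaves each difference unchanged, so keeping 59 of 59 was fixed by construction. Both floors and the pseudocount cannot turn the sign of a probe set's difference either, so their lack of reversals carries no information. Scaling to a common median and no scaling shift all differences alike, by far less than 2-fold, so they could not reverse a call either. Only quantile normalisation and the median over probe sets were free to reverse a call. Signal over background and 1 array per condition limit all calls of dim genes.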
